A study of Ginkgo biloba with 2 samples.

Results

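miR858 is a small family of plant microRNAs (miRNAs), and its members here were all names in the count table that read miR858, with any species prefix or letter. The rule found 5 of the 467 names: ath-miR858a, ath-miR858b, ppe-miR858, cme-miR858 and aly-miR858-3p. The prefix gives the species of the miRBase entry, so that ath stands for Arabidopsis thaliana, aly for Arabidopsis lyrata, cme for Cucumis melo and ppe for Prunus persica. The reads counted under these names came from Ginkgo biloba, a gymnosperm tree with no close living relatives. The mutant group was 1 small RNA library labelled as yellow leaves, and the other group was 1 library of normal green leaves. Per the labels' protocols both kinds of leaf came from an adult tree grown outdoors, and the mutant leaves are described there as striped in yellow and green, so the yellow library may hold green tissue. The same protocols name cambium as the source of the RNA, while the tissue label of both samples is leaf. Neither the gene behind the leaf colour nor pooling of leaves is given in the sources used here.

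In plants a miRNA guides an Argonaute protein to messenger RNAs with a nearly complementary site, and the messenger is cut or its translation is blocked. In Arabidopsis miR858 is known for targeting R2R3-MYB genes, transcription factors that switch on or repress genes of the phenylpropanoid pathway, which supplies flavonols, anthocyanins, proanthocyanidins and lignin precursors. MYB11, MYB12 and MYB111, the flavonol regulators, are its best known targets in that species. miR828 and miR159 are other miRNAs known for MYB targets, miR159 for those of the GAMYB type. The sequences behind the names were not analysed here.

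The yellow library held 2793966 reads over all miRNA names and the green library 2084893. Values are given as CPM (counts per 1e6 reads of that column total). With 1 library per leaf type no difference has a replicate check. Each interval is a 95% exact (Clopper-Pearson) interval that covers counting error only and compares these 2 libraries, not the leaf types. The reads carry no molecular identifiers and can be PCR copies of 1 molecule, so the true counting error can be larger.

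Reads of the family stood almost wholly under the Arabidopsis thaliana names. ath-miR858a had 17 reads in yellow leaves and 261 in green leaves, which is 6.08 CPM in yellow and 125 CPM in green leaves. ath-miR858b had 17 reads in yellow leaves and 260 in green leaves, or 6.08 and 125 CPM. The names differed by 1 read in green leaves and by none in yellow leaves, so they may count nearly the same molecules and were not read as separate measurements. In yellow leaves cme-miR858 and ppe-miR858 had 0 reads each, and in green leaves 3 each, and their equal counts may also be the same reads. aly-miR858-3p, named for the 3′ arm of the hairpin precursor, had 1 read in yellow leaves and 0 in green leaves.

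**Figure D1:**
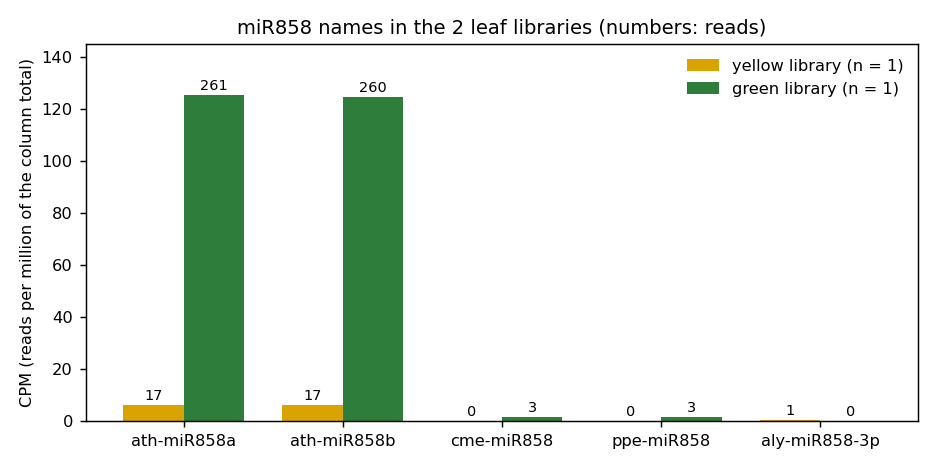
CPM of each miR858 name (vertical axis, linear from 0) in the yellow library and the green library, 1 library each, with the read count printed above each bar and no error bar. ath-miR858a stands at 6.08 CPM in yellow and 125 CPM in green leaves, ath-miR858b almost the same, and the other 3 names at 3 reads or fewer.

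Both ath names were about 20-fold lower in yellow leaves. ath-miR858a was 20.6-fold lower, with an interval from 12.6 to 35.9. ath-miR858b was 20.5-fold lower, with an interval from 12.6 to 35.7. The 17 reads of ath-miR858a in the yellow library stand against 350 that its green level would give at that depth. Of the 5 members these alone reached 20 reads, summed over the libraries. A name was called lower or higher where it met that minimum, its ratio was 2-fold or more away from 1, and its counting interval did not include 1. Both were called lower, where 24.8% of the 306 names with at least 20 reads were.

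The 3 remaining names could not be compared at this depth. For cme-miR858 and ppe-miR858 the green level corresponds to 4.02 reads in the yellow library, where 0 were found. As a floor, 3 counts were taken as the level that a count of 0 allows, a 1-sided limit, which is 1.07 CPM in the yellow library and 1.44 CPM in the green library. All 3 names lay at or under that floor in both libraries, so no fold is given for them.

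In rank, ath-miR858a stood at place 265 by reads in yellow leaves, where 427 names had reads, and at place 136 in green leaves, where 429 had. It made up 0.000608% of the yellow reads, with an interval from 0.000354% to 0.000974%. In green leaves it made up 0.0125%, with an interval from 0.011% to 0.0141%. By place and by share of reads it thus stood higher among the names in green leaves than in yellow leaves.

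The sum over the family was made up almost wholly of the ath names, so it repeats their ratio and is no separate check. With every name counted the yellow library held 35 reads and the green library 527, 20.2-fold lower (14.3 to 29.3). With names whose counts differed by at most 1 read taken once, the sum was 18 reads in yellow leaves against 264 in green leaves, 19.7-fold lower (12.2 to 33.7). The first interval is narrower because it treats reads that may stand under several names as separate.

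Every one of the 5 scalings put the ath names lower in yellow leaves. Over the 306 names the median log2 ratio was -0.43 by the column total and 0.03 with TMM factors, so that a scaling shift of 0.47 lies behind each ratio given by the total. With TMM, which of the scalings moved the ratios most, ath-miR858a was 14.9-fold lower (9.12 to 25.9), and with median-of-ratios factors 15.4-fold lower (9.41 to 26.8). Without the most-read name in the total it was 17.1-fold lower (10.5 to 29.8), and with the total of miRBase names alone 18.6-fold lower (11.4 to 32.5). Every interval lay below the 2-fold limit line of 0.5.

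**Figure D2:**
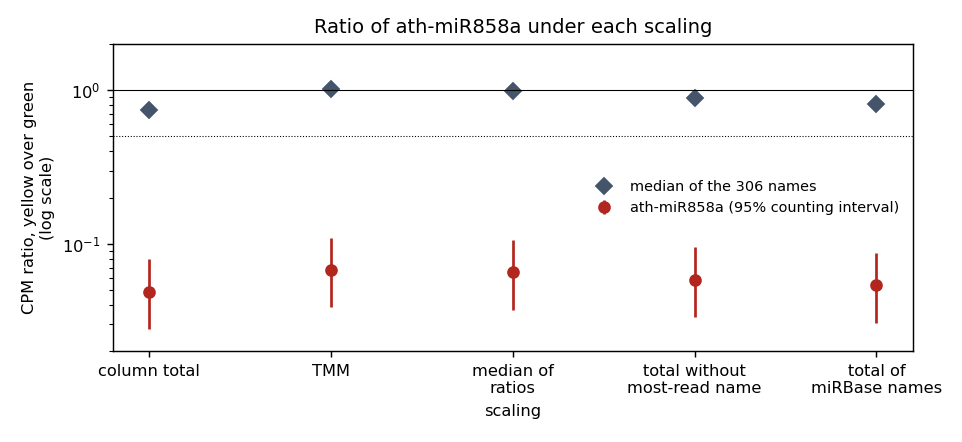
CPM ratio of yellow over green leaves (log axis) for ath-miR858a, with its 95% counting interval, and the median ratio of the 306 names with at least 20 reads, under 5 scalings along the horizontal axis. The solid line marks a ratio of 1 and the dotted line 0.5, and ath-miR858a lies below the dotted line throughout, at 20.6-fold lower by the column total and 14.9-fold lower by TMM.

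Among all names with at least 20 reads, ath-miR858a had the 10th lowest ratio and ath-miR858b the 11th. Of the 142 miRBase names among them, 7 had a lower ratio, 5 of miR408 and 2 of miR397. For bra-miR408-5p, gma-miR408d and ath-miR408-3p the counts were identical, at 27 yellow and 1029 green reads. Those of ppt-miR408b were close to them, at 27 and 1032. These miR408 names may largely hold the same reads, so the places given count names and not separate measurements. miR408 is known for blue copper protein targets and miR397 for laccases, the copper oxidases of lignin formation. The position of the ath names between these neighbours was not sharp in every case. The ratio of ath-miR858a was 2.49 times that of ppt-miR408b, the most-read miR408 name, with a counting interval from 1.25 to 4.82. It was 1.67 times that of pab-miR397, the most-read miR397 name, with an interval from 0.788 to 3.55 that includes 1. Such a quotient of ratios does not depend on the scaling of the libraries. These are 2 of 7 quotients formed with ath-miR858a, 1 for the most-read name of each other family considered, and their intervals are not adjusted for that number.

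The names nearest to ath-miR858a in log2 ratio were ath-miR397a, ath-miR8175, osa-miR408-3p, pab-miR397 and novel_344. Likeness was the absolute difference in log2 ratio, over 2 libraries only, so it compares a single value per name. ath-miR397a differed by 0.19, with 2 reads in yellow and 35 in green leaves. ath-miR8175 differed by 0.39, with 8 reads in yellow and 94 in green leaves. osa-miR408-3p differed by 0.55, pab-miR397 by 0.74 and novel_344, which the authors numbered but did not assign to a family, by 0.76. The intervals of ath-miR397a (6.03-fold to 201-fold lower) and of novel_344 (5.72-fold to 1428-fold lower) were wide.

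The most-read names of the other miRNA families known for MYB genes or for pigment control had ratios of yellow over green nearer to 1 than ath-miR858a, and those of miR319 and miR156 were also lower in yellow leaves by the total. vvi-miR828a, the single miR828 name, was read 12 times in yellow leaves and 8 times in green leaves, a ratio of 1.12 with an interval from 0.421 to 3.16. Its level, 4.29 CPM in yellow and 3.84 CPM in green leaves, was low in both libraries. At that depth a 2-fold difference in miR828 was not detectable. pta-miR159a, the most-read miR159 name, had 9288 CPM in yellow and 5124 CPM in green leaves, a ratio of 1.81 (1.77 to 1.85). mtr-miR319a-3p, of the family known for TCP genes and in part for GAMYB genes, had 1892 CPM in yellow and 4130 CPM in green leaves, 2.18-fold lower (2.11 to 2.26). ath-miR156a-5p, of the family that targets SPL genes, had 72.7 CPM in yellow and 182 CPM in green leaves, 2.5-fold lower (2.1 to 2.98).

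The quotients of ratios put a size on these gaps. The ratio of ath-miR858a was 0.0434 times that of vvi-miR828a, with a counting interval from 0.0137 to 0.136. It was 0.0268 times that of pta-miR159a (0.0154 to 0.0438) and 0.106 times that of mtr-miR319a-3p (0.0608 to 0.173). It was 0.122 times that of ath-miR156a-5p (0.0679 to 0.206) and 0.0564 times that of ath-miR398b-3p (0.0212 to 0.152), the most-read name of the copper/zinc superoxide dismutase family. None of these 5 intervals included 1.

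Of the 31 names of miR858, miR828, miR159, miR319 and miR156 with at least 20 reads, 8 were called lower and 0 higher when scaled by the total, against 24.8% lower and 12.1% higher of all 306. The 8 were the 2 ath-miR858 names, 3 of 7 miR319 names and 3 of 4 miR156 names. Among the latter, cca-miR156b and stu-miR156f-5p had equal counts, 69 reads in yellow and 125 in green leaves, and may be the same reads. With names of equal counts taken once, 7 names of the list were called lower and 0 higher, against 72 and 35 over all names. With TMM factors the calls were 2 lower and 4 higher, against 16.3% and 20.9% of all names, the 2 lower being the ath-miR858 names and the 4 higher being miR159 names. With median-of-ratios factors they were 2 lower and 4 higher, against 17.6% and 19.6% of all names. Without the most-read name in the total they were 5 and 1, against 20.9% and 16.3%, and with the total of miRBase names 6 and 0, against 23.2% and 14.7%. The median log2 ratio of the 31 names was -0.06 by the total and 0.41 with TMM. Without the miR858 names the list held 29 names and its median was -0.05 by the total and 0.42 with TMM.

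**Figure D3:**
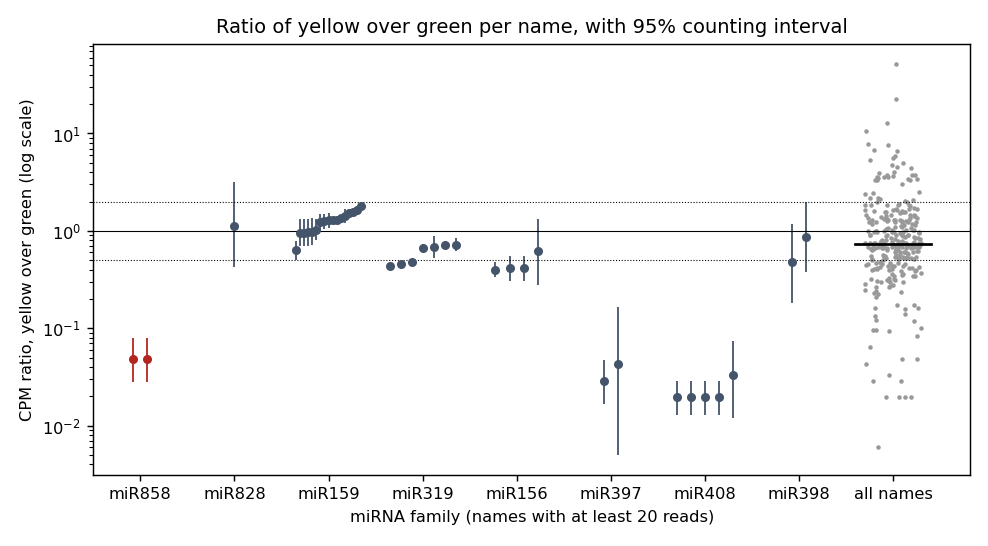
CPM ratio of yellow over green leaves (log axis) for each name with at least 20 reads, by family along the horizontal axis, with 95% counting intervals. Grey points show all 306 names without intervals, with a bar at their median. The solid line marks 1 and the dotted lines the 2-fold limits, and the ath-miR858 names (red) lie near 0.049, beside miR397 and miR408 and below every miR828, miR159, miR319, miR156 and miR398 name.

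The predicted targets of the family came from the authors' deposited table, which holds gene identifiers, the miRNA names listed for each and the description of the best protein match. No target gene was measured in these data, so the table says what the names are predicted to bind and nothing of how the genes behaved. A gene is called here by its best match, which need not share that protein's role in ginkgo. The miR858 names had 28 target genes, 1.03% of the 2713 genes in the table, in 64 pairs of a name and a gene. Of these genes 24 had a protein match, and in 18 the match was a MYB protein. 16 of them carry MYB in the description, and the other 2 matched TT2 and RAX3, which are R2R3-MYB proteins by other names. Among the target genes with a match that were not listed for miR858, 11 of 2007 matched a MYB, or 0.548%. The same words were searched in both sets of genes, and RAX3 was added to them after the data were seen.

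The largest group of MYB matches, 8 genes, were regulators of the phenylpropanoid and flavonoid pathways in other plants. Gb_18153 and Gb_19333 matched MYB4, an Arabidopsis repressor of phenylpropanoid genes. Gb_11232 and Gb_22883 matched MYB3, also a repressor in that pathway. Gb_03400 matched MYB308 of Antirrhinum majus, which lowers phenolic acid and lignin formation when expressed in tobacco. Gb_16000 matched TT2, the activator of proanthocyanidin genes in the Arabidopsis seed coat. Gb_15993 and Gb_39081 matched MYB5, which acts in the Arabidopsis seed coat and in trichomes and is described in the table as a repressor. Matches to repressors of the pathway (MYB4 and MYB3) and to an activator (TT2) thus stood side by side among the predicted targets.

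The second group, 4 genes, matched MYB proteins known from flowers. Gb_09986 and Gb_23187 matched MYB305 of Antirrhinum majus, a flower protein that binds promoters of phenylpropanoid genes. Gb_19348 matched MYB21 and Gb_15814 matched MYB24, which act in stamen development in Arabidopsis. Each of these 4 genes was listed for ath-miR858a, ath-miR858b, ppe-miR858 and cme-miR858 alike.

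The remaining MYB matches were 2 genes of the GAMYB type and 4 others. Gb_09998 and Gb_34464 matched rice GAMYB, which acts in gibberellin signalling in the aleurone and the anther. Gb_01889 matched MYB44, a stress-related factor, and Gb_03227 matched RAX3, a factor of axillary meristem formation, both in Arabidopsis. Gb_00379 matched MYB39, a regulator of suberin formation in Arabidopsis, and Gb_24641 matched MYB86. In the authors' deposited table the E values of the 18 MYB matches, the number of equally good matches that a search would return by chance, ran from 7.48e-91 for Gb_18153 to 5.4e-29 for Gb_34464.

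**Figure D4:**
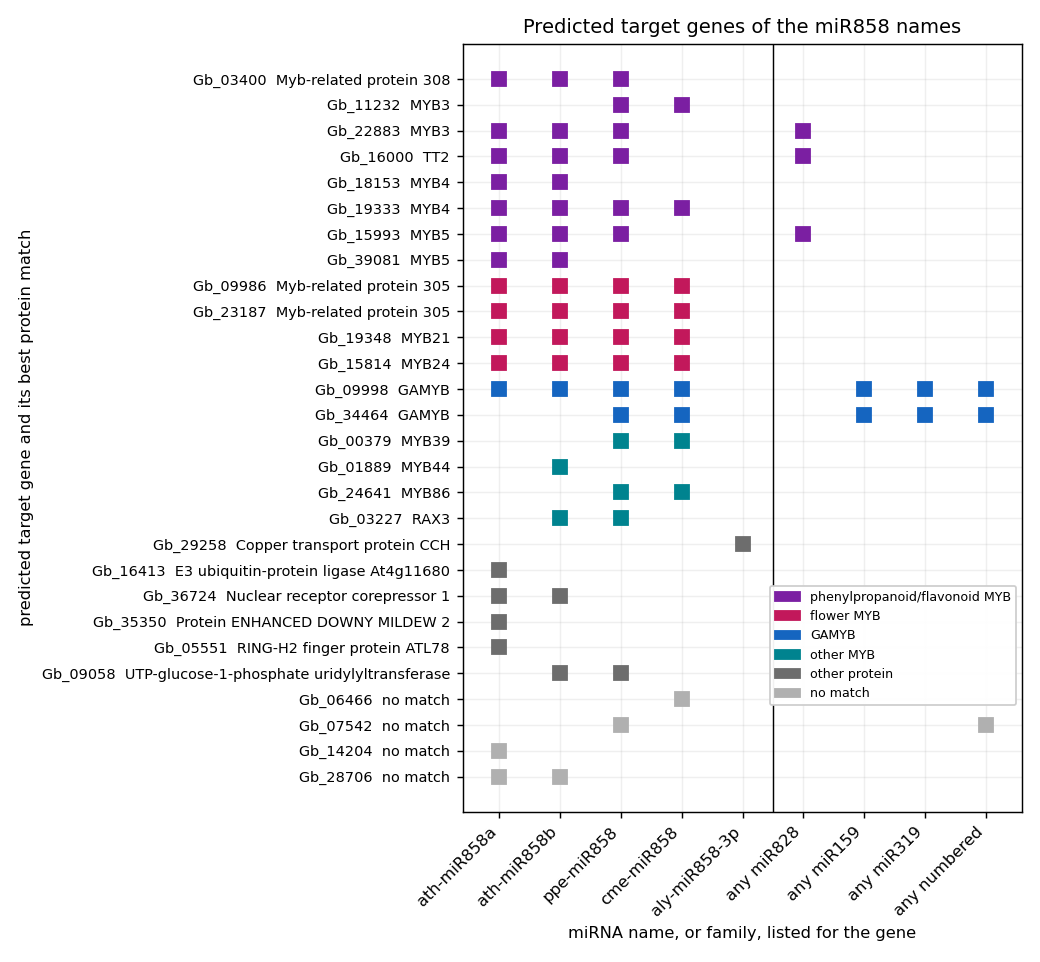
Predicted target genes of the miR858 names with their best protein match (vertical axis), and the miRNA names or families listed for each (horizontal axis). A square marks a listed pair and its colour the kind of match. The 18 MYB genes fill the upper part and most carry 2 to 4 miR858 names, while the genes below them carry 1 or 2.

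The names overlapped in their targets but were not the same. ath-miR858a had 18 target genes and ath-miR858b 17, of which 14 were shared, or 77.8% of the genes of ath-miR858a and 82.4% of those of ath-miR858b. The 14 shared genes included 12 MYB matches. MYB44 and RAX3 (Gb_01889 and Gb_03227) were MYB matches of ath-miR858b that ath-miR858a did not have. ppe-miR858 had 17 target genes, 15 of them MYB matches, and cme-miR858 had 11, 10 of them MYB matches. All 10 of these genes were among those of ppe-miR858. By comparison, the 414 names with any target had a median of 7 target genes each.

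MYB genes were listed for more miR858 names than the other target genes were. Of the 18 MYB genes, 6 were listed for 4 names, 4 for 3 names, 7 for 2 names and 1 for a single name. Of the 10 other genes none was listed for 3 or 4 names, 3 were listed for 2 and 7 for 1. The names derive from related sequences, so agreement between them is not independent evidence of a site.

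Not every MYB gene was tied to a name that was measured well. 14 of the 18 were listed for ath-miR858a or ath-miR858b, the names that were lower in yellow leaves. The other 4, Gb_00379 (MYB39), Gb_11232 (MYB3), Gb_24641 (MYB86) and Gb_34464 (GAMYB), were listed only for ppe-miR858 and cme-miR858, with 0 reads in yellow and 3 in green leaves for each name. For the phenylpropanoid and flavonoid group, 7 of the 8 genes were listed for an ath name.

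The 10 target genes with no MYB match were mostly tied to ath-miR858a. Gb_05551 matched ATL78 and Gb_16413 matched At4g11680, both RING-type ubiquitin ligases of Arabidopsis, and Gb_35350 matched ENHANCED DOWNY MILDEW 2, a chromatin protein known from disease resistance. All 3 were listed for ath-miR858a alone, as was Gb_14204, which had no protein match. Gb_36724 was listed for both ath names and matched a frog nuclear receptor corepressor, NCOR1, a protein with SANT domains, which resemble the MYB domain. The E value of that match, 1.07e-17, was higher than that of any MYB match. Gb_09058, listed for ath-miR858b and ppe-miR858, matched UTP-glucose-1-phosphate uridylyltransferase, the enzyme that makes UDP-glucose. Gb_28706 had no match and was listed for both ath names, Gb_06466 for cme-miR858 and Gb_07542 for ppe-miR858.

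The 3′ arm name had a target of another kind. aly-miR858-3p was listed for Gb_29258 alone, whose match was CCH, a copper chaperone of Arabidopsis, and it shared no target with the other miR858 names. The CCH match was the weakest among the miR858 targets, with an E value of 8.87e-08. With 1 read in yellow leaves and 0 in green leaves, nothing can be said of its level.

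Most of the MYB targets were listed for miR858 alone. Of the 18 genes, 13 carried no name of another family and 5 did. Gb_15993 (MYB5), Gb_16000 (TT2) and Gb_22883 (MYB3) were shared with vvi-miR828a. Over all names listed for these 3 genes, miR858 names held 73.9% of the reads in yellow leaves and 98.5% in green leaves, with 34 reads of miR858 and 12 of vvi-miR828a in yellow against 524 and 8 in green leaves. These sums count reads under each name, so that shared reads of the ath names enter more than once.

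The GAMYB genes showed the opposite balance. Gb_09998 was listed for 9 names of other kinds, 2 of miR159, 5 of miR319 and 2 numbered. miR858 names held 0.104% of the reads listed for it in yellow leaves and 2.41% in green leaves. Gb_34464 was listed for 26 other names, 19 of miR159, 5 of miR319 and 2 numbered, and miR858 names had 0 reads in yellow leaves and 6 in green leaves, beside 72215 and 42331 reads of the other names. The sums over other names can also count shared reads more than once. For example, osa-miR159a.1 and lus-miR159b had equal counts, 94 reads in yellow and 73 in green leaves. The shares are therefore shares of listed reads, not of molecules. Of the 32 other names that shared any target with miR858, 23 had at least 20 reads, and their ratios ran from 0.432 for ppt-miR319a to 1.81 for pta-miR159a. By the total 2 of the 23 were called lower, ppt-miR319a and mtr-miR319a-3p, and 0 higher, against 24.8% lower and 12.1% higher of all 306 names. With TMM factors 0 were called lower and 4 higher, pta-miR159a, pde-miR159, osa-miR159f and bdi-miR159a-3p, against 16.3% lower and 20.9% higher of all names.

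The miR159 names that shared a GAMYB target with miR858 were pde-miR159, aqc-miR159, pta-miR159a, pta-miR159b, pta-miR159c, mdm-miR159a, ath-miR159a, ath-miR159b-3p, ath-miR159c, osa-miR159a.1, osa-miR159c, osa-miR159d, osa-miR159e, osa-miR159f, bdi-miR159a-3p, bdi-miR159c, lus-miR159b, gma-miR159b-3p, sof-miR159c and zma-miR159e-3p. Those of them with at least 20 reads had ratios from 0.634 for aqc-miR159 to 1.81 for pta-miR159a, and 12 of the 17 were above 1 by the total. The miR319 names were pta-miR319, ppt-miR319a, mtr-miR319a-3p, gma-miR319c, ptc-miR319e and ptc-miR319i, and those with at least 20 reads had ratios from 0.432 for ppt-miR319a to 0.721 for ptc-miR319e. Under each of the 4 other scalings 16 of the 17 miR159 names were above 1, while none of the miR319 names with at least 20 reads was. Each scaling puts a common factor on every ratio, so the scalings are not separate checks. Several miR159 names had equal or nearly equal counts and may share reads, so the names are not separate measurements.

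The numbered names among those 32 were novel_31, novel_68, novel_108, novel_230 and novel_244. novel_31, listed for Gb_34464, had 3950 CPM in yellow and 2767 CPM in green leaves, a ratio of 1.43. novel_68, also listed for Gb_34464, was read 2 times in yellow leaves and 0 times in green leaves. novel_108 and novel_230, listed for Gb_09998, were each read 4 times in yellow leaves and 6 times in green leaves. novel_244, listed for Gb_07542, was read 9 times in yellow leaves and 8 times in green leaves. Except for novel_31 these were too few for a comparison.

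Over all predicted targets, 29 genes matched a MYB protein. Of these, 18 or 62.1% were listed for miR858 names, and 5 of the 18 also for names of other kinds. With the word MYB in the description alone, 26 genes matched, of which 16 were listed for miR858 names. vvi-miR828a had 13 target genes, of which 10 were MYB matches, 7 of them listed for it alone. The miR159 and miR319 names had 108 target genes, of which 4 were MYB matches, all of the GAMYB type. Of the 3 flavonol regulators named above, MYB12 was the only one matched by a gene in the table. That gene, Gb_22885, was listed for vvi-miR828a and for no miR858 name.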

How the data were processed

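The count table has 1 column per library and holds raw read counts for each miRNA name, as the authors deposited them (per the file headers). Of the tools, the submitters' processing notes list Bowtie, which aligns short reads. The sources used here do not give the genome build, miRBase release, target predictor or the rule for reads that fit several names. The target table, deposited by the authors, is text with an E value for each protein match.

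Computed here were CPM, ratios of yellow over green and exact intervals (Python 3.11.15, SciPy 1.17.1). A quotient of 2 ratios has the conditional exact interval of the odds ratio. edgeR 4.0.16 and DESeq2 1.42.0 gave scaling factors only, and no test between leaf types was made. Interval coverage and scaling were checked on simulated counts with counting error only, and the scaling check changed depth alone. The simulated counts held no PCR copies and no reads shared between names, so the checks do not cover these. Names of every family listed (miR858, miR828, miR159, miR319, miR156; miR397, miR408, miR398 for copper proteins) were counted by the size rule. All miR858 names and targets are named, with the most-read name of each other family, the 5 names nearest in ratio and every name sharing a target. The members and lists were chosen with earlier results of these data known, and the groups of MYB matches after the matches were seen.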

Additional observations from a re-analysis of the deposited data

How the results depend on the processing

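The ratios of ath-miR858a and ath-miR858b and the summed ratio of the family kept their direction under the 4 other scalings. The count of 2 lower and 0 higher miR858 names was the same under those scalings. It was also the same with limits of 1.5-fold and 3-fold, and with a minimum of 10 reads or none. Both ath names lay far beyond each of these limits and minima, so those settings could not change their calls. The ratio of ath-miR858a ran from 0.0486 to 0.0672, and the MYB matches among the targets from 16 to 18 with the keywords, the last of which was chosen after seeing the data, as was taking names within 1 read once. The list of MYB and pigment regulator names depended on the scaling: 8 lower and 0 higher by the total became 2 and 4 with TMM and also with median of ratios, and the total less its most-read name gave 5 and 1. A 3-fold limit left 2 lower, and a 1.5-fold limit called 4 higher. With names of equal counts taken once, the list had 7 lower and 0 higher. Over all names, 76 lower and 37 higher became 50 and 64 with TMM and 54 and 60 with median of ratios, and a 3-fold limit left 47 lower. The changes between scalings follow from the common factor that each scaling puts on every ratio. Those with the 3-fold and 1.5-fold limits follow from the limit itself. With 1 library per leaf type, leaving out a replicate was not possible. No paired analysis was possible because each leaf type has 1 library. The 17 yellow reads of each ath name set the precision.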
